A study of Mus musculus with 8 samples.

Results

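The Wnt ligands, receptors and antagonists of 4 mouse fibrosarcoma cell lines were read from RNA-seq gene counts. The set was defined by gene symbol, and it was chosen with earlier results of these data known. It took in the Wnt ligands (Wnt), the Frizzled receptors (Fzd), the co-receptors Lrp5 and Lrp6, the R-spondin arm (Rspo, Lgr4 to Lgr6, Znrf3 and Rnf43), the secreted antagonists (Dkk, Sfrp and Wif1) and the intracellular genes Ctnnb1, Axin1, Axin2, Tcf7, Tcf7l1, Tcf7l2 and Lef1. Of 56 annotated symbols that meet the rule, 47 were among the 18768 genes measured. These were 13 of 19 ligands, 10 of 10 Frizzled receptors, both co-receptors, 9 of 9 genes of the R-spondin arm, 6 of 9 secreted antagonists and 7 of 7 intracellular genes. Wnt1, Wnt3, Wnt3a, Wnt8a, Wnt8b, Wnt9b, Dkk1, Dkk4 and Sfrp5 were not analysed here.

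The lines were grown from tumors that formed about 3 months after mice were given 100 µg of methylcholanthrene, a chemical carcinogen, and were kept for at least 10 passages. MC010 and MC011 came from mice labelled IRF8 KO, which lack the transcription factor IRF8, and MC654 and MC659 came from C57BL/6 mice labelled WT. RNA was taken from cultured cells. Each line gave 2 libraries, 8 in all, and nothing in the labels says that these were separate cultures. The p-values between lines therefore measure only the spread between the 2 libraries of a line, which may be technical. The test by label has no term for the line. It treats the 4 libraries of a label as independent, though only 2 lines stand behind each label.

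Wnt ligands are secreted, lipid-modified glycoproteins that bind a Frizzled receptor. With a co-receptor of the Lrp5 and Lrp6 pair, this keeps beta-catenin, the product of Ctnnb1, from being degraded, and beta-catenin then acts in the nucleus with factors of the TCF and LEF family. Other ligands, Wnt5a and Wnt5b among them, are best known for branches that do not need beta-catenin. Dickkopf proteins bind the co-receptors, whereas Sfrp proteins and Wif1 bind the ligands. R-spondins act through the Lgr receptors to keep the ubiquitin ligases Znrf3 and Rnf43 from removing Frizzled receptors. The pathway is active in mesenchymal cells, the tissue of origin of a fibrosarcoma.

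The promoters of 3 members are shown, as the RefSeq bases (GRCm38.p6) that lie directly before an annotated start, none of them in an exon of GENCODE M21. Dkk2 is shown because it was the most abundant secreted antagonist, and Lgr6 because it was 1 of 2 members lower in the libraries labelled IRF8 KO. Wnt5b is shown at the 1 of its 3 annotated starts whose promoter holds a TCF and LEF motif, CTTTGAT, in capitals, at position -71 from the start. Each is written 5′ to 3′ on the strand of the gene.
Dkk2 (chr3:132085042-132085291, plus strand): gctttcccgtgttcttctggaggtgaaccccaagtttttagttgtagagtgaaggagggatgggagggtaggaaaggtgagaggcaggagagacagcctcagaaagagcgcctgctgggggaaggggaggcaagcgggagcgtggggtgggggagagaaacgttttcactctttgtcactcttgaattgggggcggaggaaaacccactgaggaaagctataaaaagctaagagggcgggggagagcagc
Lgr6 (chr1:135105277-135105526, minus strand): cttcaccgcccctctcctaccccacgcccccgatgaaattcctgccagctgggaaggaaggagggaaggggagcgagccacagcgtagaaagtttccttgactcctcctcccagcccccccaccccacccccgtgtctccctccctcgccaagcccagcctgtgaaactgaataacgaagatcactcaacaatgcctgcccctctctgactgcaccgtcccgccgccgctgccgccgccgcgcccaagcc
Wnt5b (chr6:119449387-119449636, minus strand): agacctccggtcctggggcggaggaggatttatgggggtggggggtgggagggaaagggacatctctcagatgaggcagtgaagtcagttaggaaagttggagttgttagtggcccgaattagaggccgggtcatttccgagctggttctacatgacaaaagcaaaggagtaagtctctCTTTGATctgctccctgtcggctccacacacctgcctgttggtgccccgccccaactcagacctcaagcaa
Both CTTTGAA and CTTTGAT were searched on both strands in windows from 250 bases before to 50 bases after a start, and the 2 motifs cannot share a position on 1 strand. A match was in 2 of 40 windows of the 30 members matched by symbol (5.0%), the other at -51 of a Wnt11 start, and in 8.65% of 32851 windows of all genes. No match in the Dkk2 and Lgr6 windows says only that these letters are not in them. The members' windows held a median of 26 CpG and a GC content of 67.5%, against 7 and 52.7% for all windows.

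Library totals ran from 74063616 to 116206078 counts, so that a floor of 3 counts was worth 0.0262 to 0.0408 CPM (counts scaled to a library's total), for counting error only. Levels are CPM with TMM-scaled library sizes, a scaling that sets aside differences in RNA composition. Irf8 RNA went against the labels: MC010 held 442 and 347 Irf8 counts and MC011 held 32 and 10, whereas the 4 libraries labelled WT held 0 to 2. The source of this Irf8 RNA was not tested, and the groups are therefore called by their labels throughout. Vim, a mesenchymal filament gene, was abundant in every library (4532 to 7384 CPM), but Lum, a fibroblast matrix gene, was at most 0.222 CPM. The 13 fibroblast markers summed to 9784 to 10615 CPM in the libraries labelled IRF8 KO and 14454 to 16194 CPM in those labelled WT. Of the 12 tested, Pdgfra (log2 fold change 3.82), S100a4 (2.17) and Thy1 (1.93) were higher under IRF8 KO, and the matrix gene Fn1 (-2.33) was lower, at 1142 to 2112 CPM against 7779 to 8132 CPM under WT, with a median over the list of 0.63. The epithelial filament gene Krt8 reached 293.4 and 273.9 CPM in MC010 but 1.31 and 1.28 CPM in MC011. The 7 epithelial markers measured summed to 39.9 to 566.7 CPM under the label IRF8 KO and 114.9 to 129.3 CPM under WT, with Cdh1 at most 0.394 CPM. Of the 6 tested, Epcam (log2 fold change 2.20, at most 1.19 CPM) and Krt19 (1.83) were higher under IRF8 KO. None was lower, and the median over this list was 2.02. Summed endothelial, hematopoietic, skeletal muscle and Schwann and melanocyte markers were each at most 11.5 CPM in any library. The part of these differences in the results for Wnt genes was not tested. In RNA from whole cultures, fewer cells that express a gene and less RNA per cell cannot be told apart.

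The secreted antagonists had the largest median log2 fold change between the labels of any role, 4.93 over the 5 tested, against 1.24 over 10 ligands. Dkk2, Dkk3 and Sfrp1 each stood higher under the label IRF8 KO, and the 6 antagonists together summed to 612.0 and 597.7 CPM in MC010 and 372.1 and 380.5 CPM in MC011, against 10.5 to 11.8 CPM in the libraries labelled WT. Over all roles, a gene was called when the adjusted p of edgeR's quasi-likelihood test (Benjamini-Hochberg adjustment over 15153 genes) was below 0.05 and the log2 fold change exceeded 0.59 in size. Of the 39 members with enough counts to be tested, 15 were higher under the label IRF8 KO, against 13.7% of all genes tested, and 2 were lower, against 8.72%. In all, 43.6% of the tested members were called and 22.5% of all genes. The other 8 members had too few counts in this fit. A member that passes the count filter through only one label had to differ, so these shares describe the members tested and not the set. Among the called members these were Sfrp1, Wnt2, Wnt4 and Axin2, which would not have passed on the libraries labelled WT alone. The median log2 fold change of the 39 was 0.63 (all genes 0.02), and the median of its size was 1.20 (all genes 0.36).

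**Figure D1:**
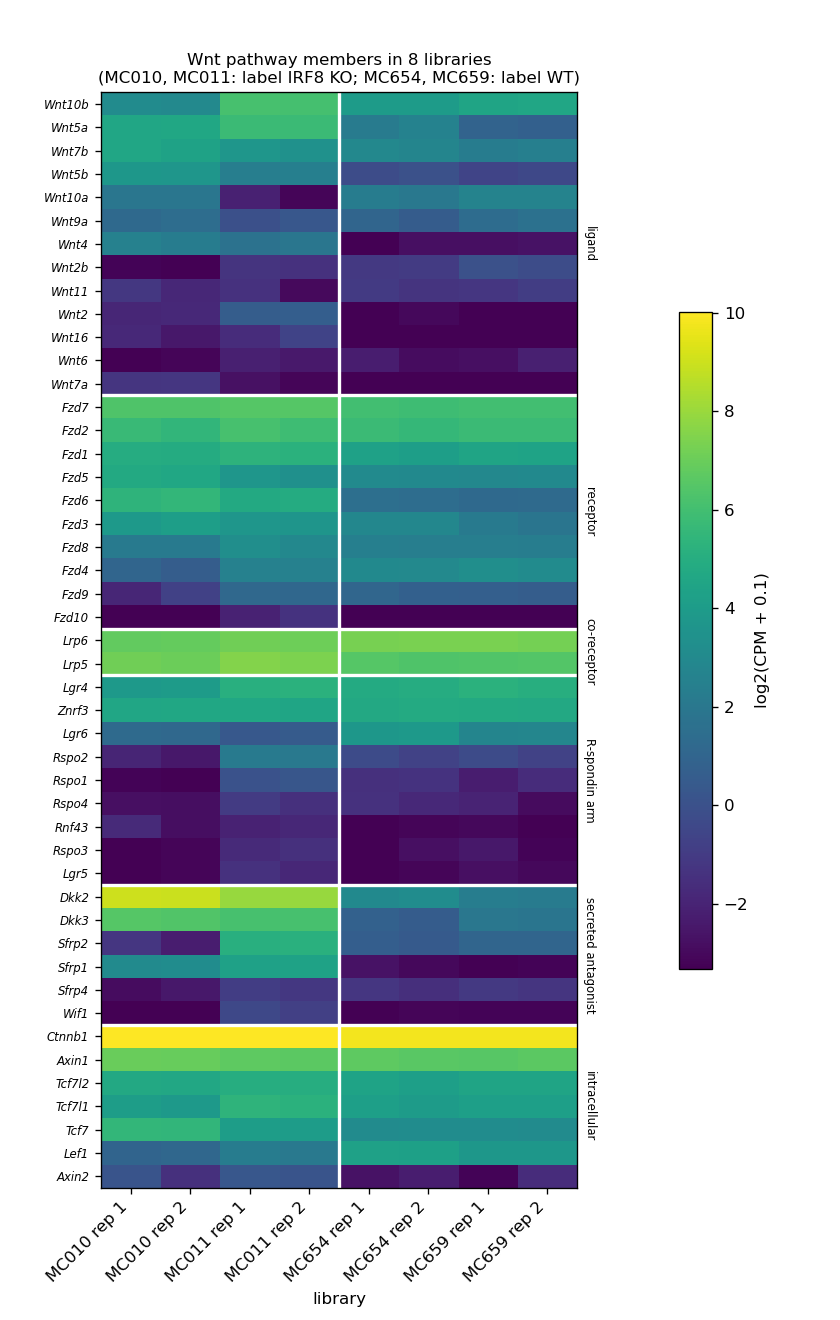
Level of each of the 47 members (vertical axis, grouped by role) in the 8 libraries (horizontal axis), as log2(CPM + 0.1) in colour, with white lines between roles and between the labels. Dkk2, Dkk3, Sfrp1, Wnt4 and Fzd6 are brighter in the 4 libraries labelled IRF8 KO, and Lgr6 and Lef1 are darker there.

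Summaries at the level of libraries and lines bound these counts. Of the 39 members, 18 had all 4 libraries labelled IRF8 KO above all 4 labelled WT (22.1% of all genes) and 7 had them below (20.5%). An exact two-sided permutation test on such a member gives p = 0.0286, the smallest that 4 libraries against 4 allow, and 2 lines against 2 cannot go below 0.333. When libraries of a line were summed, leaving 2 lines against 2, none of the 39 was called by edgeR's quasi-likelihood test and none of the 15153 genes was. In that fit 20 members and 3658 genes had an unadjusted p under 0.05, and the lowest adjusted p among the members was 0.0572. Between single lines, all 47 members could be tested (16703 genes). In that fit 15 members were higher in both lines labelled IRF8 KO than in both labelled WT, in all 4 pairs, against 8.35% of genes, and 2 were lower, against 5.01%. Of these 15, Rnf43, Wnt16, Sfrp1, Wnt4, Wnt2 and Axin2 would not have passed the count filter on the libraries labelled WT alone. Their direction was therefore set by the filter.

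Dkk2 (chr3:132085292-132180304, mm10) encodes a secreted inhibitor that binds the Lrp5 and Lrp6 co-receptors. It stood at 512.6 and 503.4 CPM in MC010, 245.9 and 252.7 in MC011, 8.07 and 8.86 in MC654, and 4.92 and 4.60 in MC659. Every library labelled IRF8 KO was far above every library labelled WT, and the means were 378.6 ± 149.4 against 6.61 ± 2.17 CPM (SD, n = 4 libraries of 2 lines per label). The difference was a log2 fold change of 5.84 (SE 0.40, adjusted p = 4.06e-05), and MC010 was above MC011 (log2 MC010 minus MC011 1.03, SE 0.05, adjusted p = 1.08e-11).

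Dkk3 (chr7:112116017-112159057) encodes a divergent Dickkopf protein whose action on Wnt signaling is less clear. It stood at 90.8 and 85.3 CPM in MC010, 70.6 and 71.5 in MC011, 1.64 and 1.39 in MC654, and 3.83 and 3.59 in MC659. The groups were again far apart (log2 fold change 4.93, SE 0.38, adjusted p = 6.58e-05). Among the WT-labelled lines Dkk2 was higher in MC654 and Dkk3 in MC659 (log2 MC654 minus MC659 0.83 and -1.29, SE 0.07 and 0.11, adjusted p = 4.59e-07 and 4.06e-07).

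Sfrp1 (chr8:23411502-23449632) encodes a secreted Frizzled-related protein that binds Wnt ligands. It stood at 8.26 and 8.84 CPM in MC010, 19.9 and 20.4 in MC011, 0.0599 and 0.0235 in MC654, and 0 and 0.0111 in MC659. The libraries labelled WT were at or near 0, most of them under the floor of 3 counts, and no library of the other label was below 8 CPM (log2 fold change 9.19, SE 0.75, adjusted p = 8.61e-05). Sfrp1 passed the count filter only through libraries labelled IRF8 KO, so its direction was set by it. MC011 held more than MC010 (log2 MC010 minus MC011 -1.23, SE 0.11, adjusted p = 4.15e-08).

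Sfrp2 (chr3:83766321-83774316), a relative of Sfrp1, differed between the lines of 1 label. It stood at 0.332 and 0.109 CPM in MC010, 34.6 and 35.1 in MC011, 1.47 and 1.29 in MC654, and 1.91 and 1.95 in MC659. MC011 was above all other libraries and MC010 below all of them, so the labels overlapped (log2 fold change 3.40, SE 1.52, adjusted p = 0.115). Sfrp2 was called by DESeq2 (3.39, adjusted p = 0.0377) and without MC010 replicate 2 (3.80, adjusted p = 0.0392). The difference between the 2 lines labelled IRF8 KO was the largest of any member shown in full (log2 MC010 minus MC011 -7.15, SE 0.19, adjusted p = 8.03e-15). Without MC011 the label difference turned negative, at -2.84 (adjusted p = 0.000256). Of the other antagonists, Wif1, a ligand-binding inhibitor, had 100 counts in MC011, 0 in MC010 and 3 in the libraries labelled WT, at least 16.7-fold more in MC011 than in MC010. Sfrp4 was below 1 CPM in every library.

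**Figure D2:**
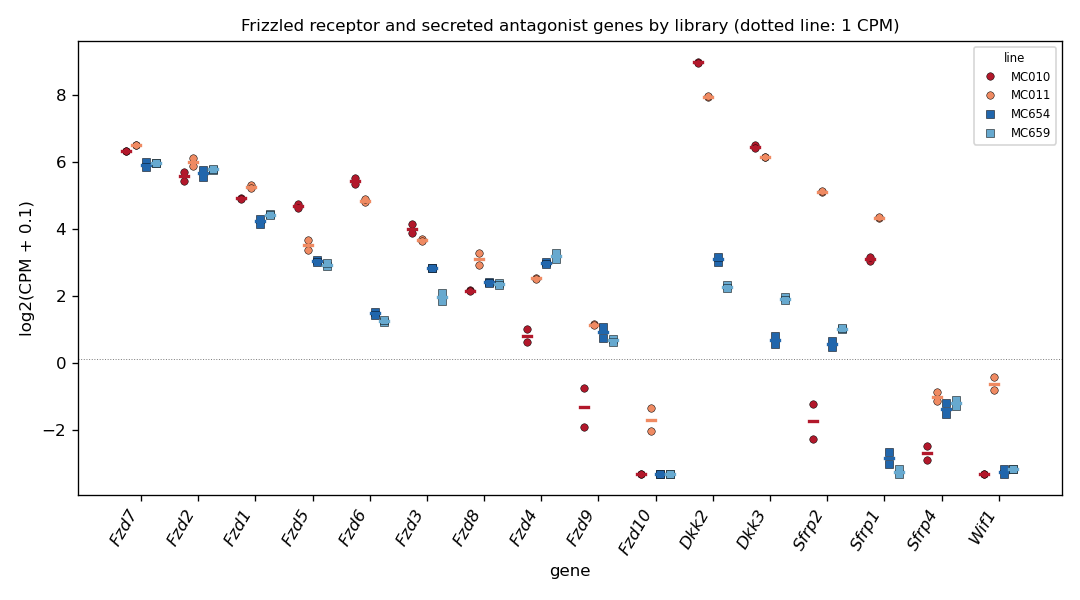
Level of each Frizzled receptor and secreted antagonist gene (horizontal axis) as log2(CPM + 0.1) (vertical axis), with 1 point per library, circles for the lines labelled IRF8 KO, squares for WT and a short bar at each line's mean. Fzd6, Dkk2, Dkk3 and Sfrp1 sit higher in both lines labelled IRF8 KO, whereas Sfrp2 is above the WT-labelled lines in MC011 and below them in MC010.

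Among the ligands, 5 of the 10 tested were higher under IRF8 KO and none was lower, against 13.7% and 8.72% of all genes. Of these 5, Wnt2 and Wnt4 passed the count filter only through libraries labelled IRF8 KO, so their direction was set by it. The 13 ligands summed to 82.3 and 77.3 CPM in MC010 and 150.3 and 145.3 CPM in MC011, against 35.3 to 42.0 CPM in the libraries labelled WT. Wnt5a (chr14:28504750-28527448), a ligand of the beta-catenin-independent branch, stood at 23.7 and 24.2 CPM in MC010, 55.5 and 54.2 in MC011, 4.54 and 5.85 in MC654, and 1.79 and 1.62 in MC659. The labels did not overlap (log2 fold change 3.51, SE 0.54, adjusted p = 0.00171). MC011 was above MC010 (log2 MC010 minus MC011 -1.19, SE 0.08, adjusted p = 1.93e-09), and MC654 was above MC659 by a log2 difference of 1.61 (SE 0.12, adjusted p = 1.59e-07).

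Wnt5b (chr6:119432531-119544347), its paralog, 1 of whose promoters is printed above, stood at 13.3 and 12.8 CPM in MC010, 5.16 and 5.29 in MC011, 0.755 and 0.883 in MC654, and 0.555 and 0.656 in MC659. No library labelled WT reached 1 CPM (log2 fold change 3.68, SE 0.41, adjusted p = 0.000352). Here MC010 was the higher of the 2 lines labelled IRF8 KO (log2 MC010 minus MC011 1.33, SE 0.12, adjusted p = 5.4e-08). Wnt4 (chr4:137277489-137299726), a ligand of kidney and female reproductive tract development, stood at 5.78 and 4.73 CPM in MC010, 3.18 and 3.62 in MC011, 0 and 0.0471 in MC654, and 0.0453 and 0.0556 in MC659. It was close to the floor under WT and above 3 CPM in every library of the other label (log2 fold change 6.81, SE 0.61, adjusted p = 0.000135).

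Wnt7b (chr15:85535437-85582473), a ligand that signals through beta-catenin in lung and vessel development, stood at 23.8 and 20.7 CPM in MC010, 12.9 and 10.8 in MC011, 7.41 and 6.65 in MC654, and 4.71 and 5.27 in MC659. The 4 libraries labelled IRF8 KO lay above the others by a smaller margin (log2 fold change 1.50, SE 0.28, adjusted p = 0.00438), and without MC659 the adjusted p was 0.0767. Wnt2 (chr6:17988940-18030585), a ligand of lung and heart mesenchyme, stood at 0.175 and 0.190 CPM in MC010, 1.42 and 1.47 in MC011, 0 and 0.0235 in MC654, and 0 and 0 in MC659. The libraries labelled WT held 2 counts against 287, a ratio of 136.9 with a 95% counting interval of 37.6 to 1136, and most of the signal was in MC011. The adjusted p for Wnt2 was 0.00414, and it was 0.0584 without MC654, 0.0757 without MC659 and 0.0515 in limma-voom when lines entered as random blocks.

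Wnt10b and Wnt10a differed between MC010 and MC011 and were not called by label. Wnt10b (chr15:98770712-98778150), a beta-catenin ligand of bone and fat precursors, stood at 8.68 and 7.81 CPM in MC010, 70.3 and 67.8 in MC011, 16.1 and 15.7 in MC654, and 22.4 and 23.9 in MC659. MC011 was highest and MC010 lowest of the 4 lines (log2 MC010 minus MC011 -3.06, SE 0.07, adjusted p = 2.67e-15), and the label difference, 0.98 (adjusted p = 0.325), turned to -1.25 without MC011 (adjusted p = 0.000677). Wnt10a (chr1:74791516-74804179), a relative known from teeth and hair, stood at 3.68 and 3.63 CPM in MC010, 0.135 and 0.0127 in MC011, 4.84 and 4.01 in MC654, and 6.19 and 6.13 in MC659. It was near the floor in MC011 alone (log2 MC010 minus MC011 5.50, SE 0.33, adjusted p = 2.88e-10). All libraries labelled IRF8 KO were below those labelled WT, but the label difference did not pass the test (log2 fold change -1.50, SE 1.18, adjusted p = 0.356).

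Wnt9a, a ligand of joints and limbs, stood at 2.29 and 2.61 CPM in MC010, 0.840 and 1.11 in MC011, 1.92 and 1.35 in MC654, and 2.57 and 3.05 in MC659. Its labels overlapped (adjusted p = 0.523), MC010 was above MC011 (log2 MC010 minus MC011 1.33, SE 0.23, adjusted p = 8.13e-05), and the sign of the label difference, -0.37, turned to 0.13 without MC011 and 0.06 without MC659. Wnt16 and Wnt7a held no count in any library labelled WT. Wnt16 had 92 counts under the other label, at least 7.46-fold more, and Wnt7a had 66, at least 5.09-fold more, 60 of them in MC010. The remaining ligands Wnt11, Wnt2b and Wnt6 were below 1 CPM in every library. Per kilobase of exon, Wnt5b led the ligands in MC010 (4.92 CPM per kb, with Wnt7b next at 4.54), and Wnt10b led in MC011 (20.3), MC654 (4.68) and MC659 (6.81).

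**Figure D3:**
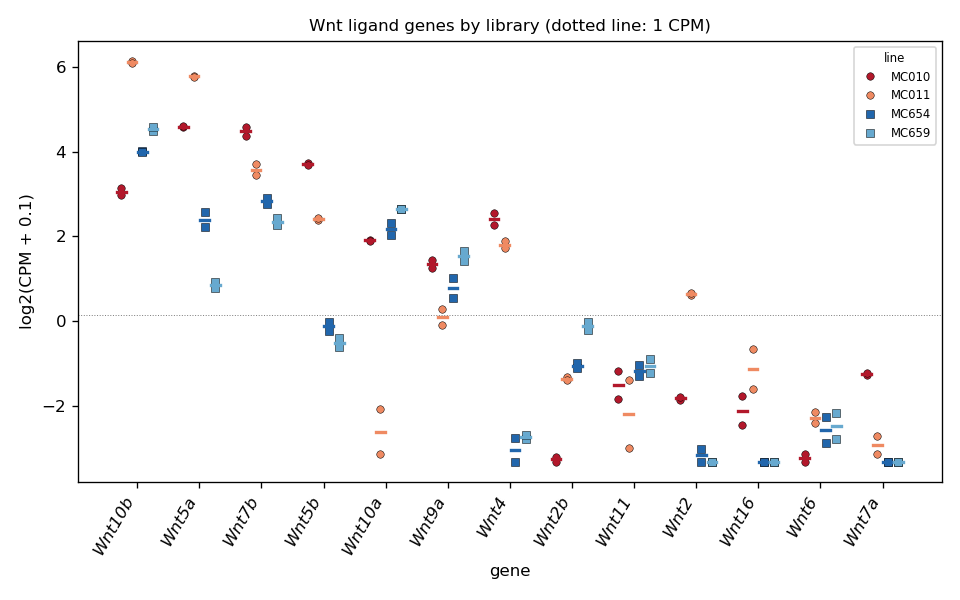
Level of each Wnt ligand gene (horizontal axis) as log2(CPM + 0.1) (vertical axis), with 1 point per library, circles for the lines labelled IRF8 KO, squares for WT and a short bar at each line's mean. Wnt5a, Wnt7b, Wnt5b, Wnt4 and Wnt2 are higher in both lines labelled IRF8 KO, whereas Wnt10b and Wnt10a separate MC010 from MC011.

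Of the 9 Frizzled receptors tested, 4 were higher under IRF8 KO and none was lower, where 13.7% of all genes were higher and 8.72% lower. Fzd6 (chr15:39006034-39038188), a receptor of planar cell polarity, stood at 40.4 and 46.4 CPM in MC010, 27.8 and 29.8 in MC011, 2.79 and 2.61 in MC654, and 2.24 and 2.36 in MC659. The means were 36.1 ± 8.81 against 2.50 ± 0.248 CPM (SD, n = 4 libraries of 2 lines per label), and the groups lay far apart (log2 fold change 3.85, SE 0.20, adjusted p = 8.99e-06). Fzd6 had the smallest adjusted p of the 39 members.

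Fzd3 (chr14:65192449-65262463), a receptor of axon guidance and polarity, stood at 14.7 and 17.6 CPM in MC010, 13.0 and 12.4 in MC011, 7.13 and 7.12 in MC654, and 4.19 and 3.49 in MC659. The labels did not overlap (log2 fold change 1.40, SE 0.26, adjusted p = 0.00437), and MC654 was above MC659 (log2 difference 0.89, SE 0.12, adjusted p = 6.5e-05). Fzd5 (chr1:64730558-64737751) stood at 27.1 and 24.6 CPM in MC010, 12.8 and 10.4 in MC011, 8.31 and 7.95 in MC654, and 7.35 and 7.85 in MC659. Its difference (log2 fold change 1.25, SE 0.31, adjusted p = 0.0137) had an adjusted p of 0.113 without MC654, 0.137 without MC659 and 0.0717 in limma-voom with lines as random blocks, and fell to a log2 fold change of 0.54 without MC010, below the 0.59 required. Fzd1 (chr5:4753839-4758035) stood at 30.6 and 29.8 CPM in MC010, 39.8 and 37.3 in MC011, 19.6 and 17.9 in MC654, and 22.0 and 21.2 in MC659. Its log2 fold change of 0.77 (SE 0.12, adjusted p = 0.00168) was 0.57 without MC011.

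Fzd7, Fzd2, Fzd4, Fzd8 and Fzd9 were not called. Fzd7 stood at 80.6 and 81.0 CPM in MC010, 91.3 and 91.2 in MC011, 63.7 and 58.5 in MC654, and 62.4 and 62.5 in MC659. All libraries labelled IRF8 KO were higher, by a log2 fold change of 0.48 that fell short of the size required (SE 0.06, adjusted p = 0.000884). Fzd2 stood at 52.6 and 43.8 CPM in MC010, 70.1 and 59.1 in MC011, 54.3 and 47.3 in MC654, and 54.7 and 55.5 in MC659, with overlapping labels. Fzd2 and Fzd7 were the 2 most abundant Frizzled genes per kilobase in all 4 lines, at 13.2 to 20.1 CPM per kb. Fzd4 stood at 1.92 and 1.44 CPM in MC010, 5.78 and 5.65 in MC011, 8.01 and 7.65 in MC654, and 9.73 and 8.55 in MC659. It was lower in every library labelled IRF8 KO, mostly in MC010, without passing the test (log2 fold change -1.20, SE 0.45, adjusted p = 0.0705). With MC011 replicate 1 or 2 left out the adjusted p of Fzd4 was 0.0401 and 0.0465, and in DESeq2 it was 0.0189.

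Fzd8 stood at 4.44 and 4.35 CPM in MC010, 9.62 and 7.49 in MC011, 5.25 and 5.19 in MC654, and 5.14 and 4.96 in MC659. Fzd9 stood at 0.166 and 0.503 CPM in MC010, 2.14 and 2.10 in MC011, 2.03 and 1.60 in MC654, and 1.56 and 1.45 in MC659. In both, MC011 was the highest line and MC010 the lowest, with log2 differences between them of -0.96 (SE 0.13, adjusted p = 6.18e-06) and -2.76 (SE 0.34, adjusted p = 2.65e-06). The label differences of Fzd8 and Fzd9 were 0.33 and -0.44 (adjusted p = 0.362 and 0.658). Fzd10 was below 1 CPM in every library.

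Of the co-receptors, which bind a Wnt ligand together with Frizzled, only Lrp5 was called. Lrp5 (chr19:3584828-3686564) stood at 138.6 and 129.5 CPM in MC010, 186.3 and 170.7 in MC011, 89.1 and 80.3 in MC654, and 83.6 and 88.0 in MC659. Every library labelled IRF8 KO was higher (log2 fold change 0.87, SE 0.12, adjusted p = 0.00093). Lrp6 (chr6:134446476-134566965) stood at 112.9 and 118.5 CPM in MC010, 141.8 and 136.0 in MC011, 156.1 and 159.2 in MC654, and 159.0 and 153.1 in MC659. It was lower in every library labelled IRF8 KO, by a log2 fold change of -0.30 (SE 0.08, adjusted p = 0.018), short of the size required. Per kilobase of exon, Lrp5 was above Lrp6 in MC010 (13.8 against 8.46 CPM per kb) and MC011 (18.3 against 10.2), and below it in MC654 (8.70 against 11.5) and MC659 (8.81 against 11.4).

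In the R-spondin arm, Lgr6 was the only one of 6 tested genes that was called, where 22.5% of all genes were. Lgr6 (chr1:134983301-135105276), an R-spondin receptor of stem cells in skin, whose promoter is printed above, stood at 2.31 and 2.18 CPM in MC010, 1.19 and 1.33 in MC011, 13.4 and 14.2 in MC654, and 6.55 and 6.76 in MC659. The 4 libraries labelled IRF8 KO were below all others (log2 fold change -2.54, SE 0.37, adjusted p = 0.00126), MC654 was above MC659 (log2 difference 1.05, SE 0.11, adjusted p = 4.91e-06), and MC010 was above MC011 (log2 MC010 minus MC011 0.84, SE 0.14, adjusted p = 8.33e-05). Lgr4, a more widely expressed R-spondin receptor, stood at 14.2 and 16.2 CPM in MC010, 33.7 and 36.1 in MC011, 28.2 and 30.7 in MC654, and 36.2 and 32.8 in MC659. Only MC010 stood apart, below the other 3 lines (log2 MC010 minus MC011 -1.20, SE 0.08, adjusted p = 1.16e-09). The sign of its label difference, -0.35 (adjusted p = 0.409), turned to 0.11 without MC010.

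Rspo2, an R-spondin ligand, stood at 0.157 and 0.0816 CPM in MC010, 4.27 and 4.08 in MC011, 0.731 and 0.530 in MC654, and 0.714 and 0.511 in MC659. MC011 was above and MC010 below both lines labelled WT (log2 MC010 minus MC011 -5.03, SE 0.32, adjusted p = 6.94e-10), and the label difference, 1.79 (adjusted p = 0.243), turned to -2.32 without MC011 (adjusted p = 0.00085). Rspo1, another R-spondin ligand, had 174 counts in MC011 and 1 in MC010, a ratio of 186.4 (95% counting interval 33.0 to 7403). Of the ubiquitin ligases, Znrf3 stood at 24.0 and 24.7 CPM in MC010, 24.6 and 23.2 in MC011, 26.7 and 28.0 in MC654, and 27.5 and 26.5 in MC659. It was lower in every library labelled IRF8 KO, short of the size required, at a log2 fold change of -0.17 (SE 0.06, adjusted p = 0.05). Its partner Rnf43 was far lower, with 54 counts under the label IRF8 KO and 3 under WT, a ratio of 17.2 (95% counting interval 5.57 to 85.9). The other genes of the arm, Lgr5, Rspo3 and Rspo4, were below 1 CPM in every library.

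The intracellular genes were mixed, with Tcf7 and Axin2 higher, Lef1 lower and 4 not called, where 13.7% of all genes were higher and 8.72% lower. Axin2 would not have passed the count filter on the libraries labelled WT alone, so its direction was set by the filter. Lef1 (chr3:131110471-131224356) encodes a nuclear partner of beta-catenin. It stood at 1.85 and 2.07 CPM in MC010, 4.80 and 4.18 in MC011, 19.5 and 18.9 in MC654, and 13.3 and 13.2 in MC659. All libraries labelled IRF8 KO were lower (log2 fold change -2.33, SE 0.35, adjusted p = 0.00153), and MC010 was below MC011 (log2 MC010 minus MC011 -1.20, SE 0.12, adjusted p = 1.49e-07). The counting is not stated to use strand, and of the exon bases of Lef1 13.7% overlapped the antisense gene Gm43352, which had 185 counts over the 8 libraries against 6756 for Lef1. Genes on the opposite strand also overlapped 17.8% of the exon bases of Fzd5, 16.1% of those of Sfrp2 and 14.6% of those of Ctnnb1.

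Tcf7 (chr11:52252371-52283014) encodes another factor of the same family, TCF1. It stood at 46.3 and 44.2 CPM in MC010, 17.3 and 16.5 in MC011, 8.57 and 9.04 in MC654, and 8.94 and 8.54 in MC659. MC010 was highest and MC011 next (log2 fold change 1.82, SE 0.37, adjusted p = 0.00583). The adjusted p of Tcf7 was 0.0809 without MC654 and 0.0855 without MC659. Axin2, a scaffold of the beta-catenin destruction complex and a common target of the pathway, was low, at 0.259 to 1.13 CPM under the label IRF8 KO and 0.0113 to 0.222 CPM under WT. The labels did not overlap (log2 fold change 3.06, SE 0.75, adjusted p = 0.0143), but the 2 MC010 libraries were far apart (0.997 and 0.259 CPM) and the adjusted p was 0.159 without MC654 and 0.33 in limma-voom when lines entered as random blocks.

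Ctnnb1, which encodes beta-catenin, stood at 1036 and 1040 CPM in MC010, 1010 and 1022 in MC011, 899.3 and 898.0 in MC654, and 885.0 and 868.8 in MC659. It was slightly higher in all libraries labelled IRF8 KO (log2 fold change 0.21, SE 0.04, adjusted p = 0.00638), short of the size required. Axin1, the other Axin scaffold, stood at 125.3 and 122.0 CPM in MC010, 104.6 and 101.3 in MC011, 105.7 and 99.0 in MC654, and 94.6 and 102.1 in MC659, with overlapping labels (adjusted p = 0.132). Tcf7l2 stood at 26.7 and 25.1 CPM in MC010, 31.3 and 31.9 in MC011, 21.2 and 18.4 in MC654, and 21.7 and 22.2 in MC659. Tcf7l2, which encodes TCF4, was higher in all libraries labelled IRF8 KO but short of the size required (log2 fold change 0.46, SE 0.10, adjusted p = 0.00969). Tcf7l1, which encodes the mainly repressive TCF3, stood at 17.1 and 14.3 CPM in MC010, 41.1 and 36.6 in MC011, 18.1 and 15.9 in MC654, and 18.1 and 18.4 in MC659. MC011 stood above all other libraries, and the mean of MC010 was below that of both lines labelled WT (log2 MC010 minus MC011 -1.30, SE 0.09, adjusted p = 2.05e-09). The label difference of Tcf7l1, 0.63 (adjusted p = 0.178), was 0.83 (adjusted p = 0.0489) without MC010 replicate 2 and -0.18 without MC011.

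**Figure D4:**
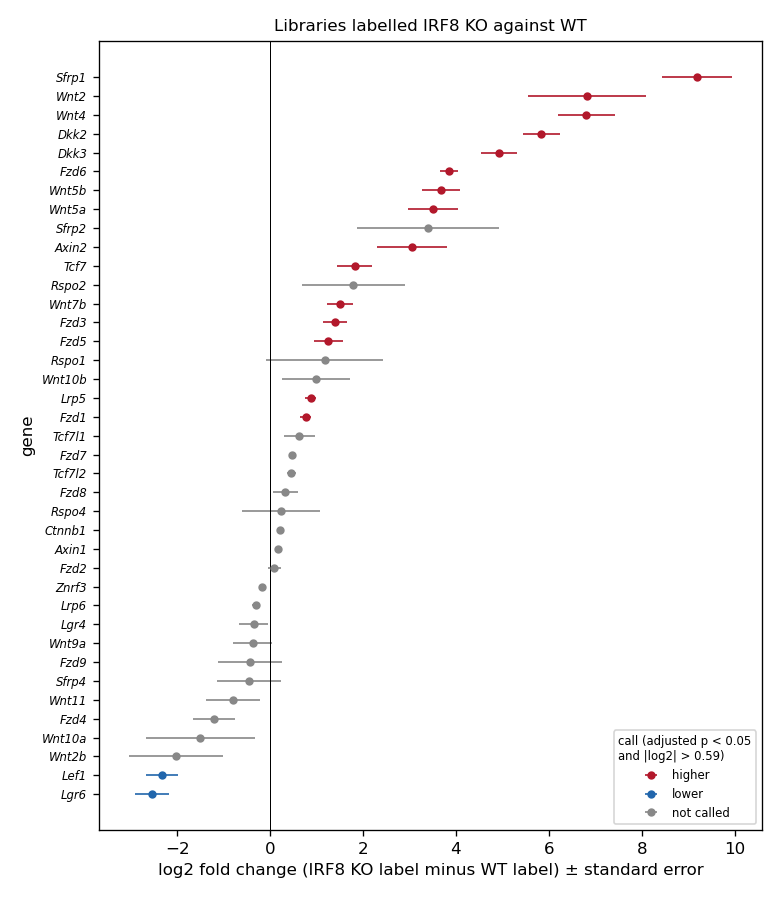
Log2 fold change, libraries labelled IRF8 KO minus WT, with its standard error (horizontal axis) for the 39 members tested (vertical axis), coloured by call. The called genes run from Lgr6 (-2.54) and Lef1 (-2.33) to Sfrp1 (9.19), and Sfrp2 and Rspo2 have large values with wide errors and no call.

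MC010 and MC011, though of 1 label, differed in most members. Of the 47, 11 were higher in MC010 and 21 were lower, against 16.3% of all genes in each direction and 32.6% in all. MC654 and MC659 differed in 6 members (4.58% of all genes), with Lgr6, Wnt5a, Fzd3 and Dkk2 higher in MC654 (1.16%) and Wnt9a and Dkk3 lower (3.42%). Each line against its WT-labelled counterparts, which the comparisons share, gave 31 members called for MC010 against MC654 (35.8% of genes), with 18 higher (20.3%) and 13 lower (15.4%). MC010 against MC659 gave 30 (36.7%), with 17 higher (19.8%) and 13 lower (16.9%). MC011 against MC654 gave 31 (29.9%), with 27 higher (18.0%) and 4 lower (11.9%), and MC011 against MC659 gave 34 (30.5%), with 28 higher (17.3%) and 6 lower (13.2%). MC010 was above each of the other 3 lines in 8 members (9.32% of genes), Tcf7, Wnt4, Wnt5b, Wnt7a, Wnt7b, Fzd5, Fzd6 and Dkk2. MC011 was above each of the other 3 in 13 (6.42%), among them Rspo2, Wnt10b, Wnt2, Wnt5a, Sfrp1 and Sfrp2. Lgr5, Rspo3, Fzd10 and Wif1, also among these 13, passed the count filter through MC011 alone, as Wnt7a did through MC010. Such a member had to differ, so the shares between lines are partly set by the filter. MC011 was called above both lines labelled WT and MC010 below both in 4 members, Rspo1, Rspo2, Wnt10b and Sfrp2, against 0.886% of genes. The opposite arrangement was found in 0 of the 47 by edgeR's quasi-likelihood test, against 0.605% of genes, and also in 0 at an unadjusted p under 0.05 in each pair.

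**Figure D5:**
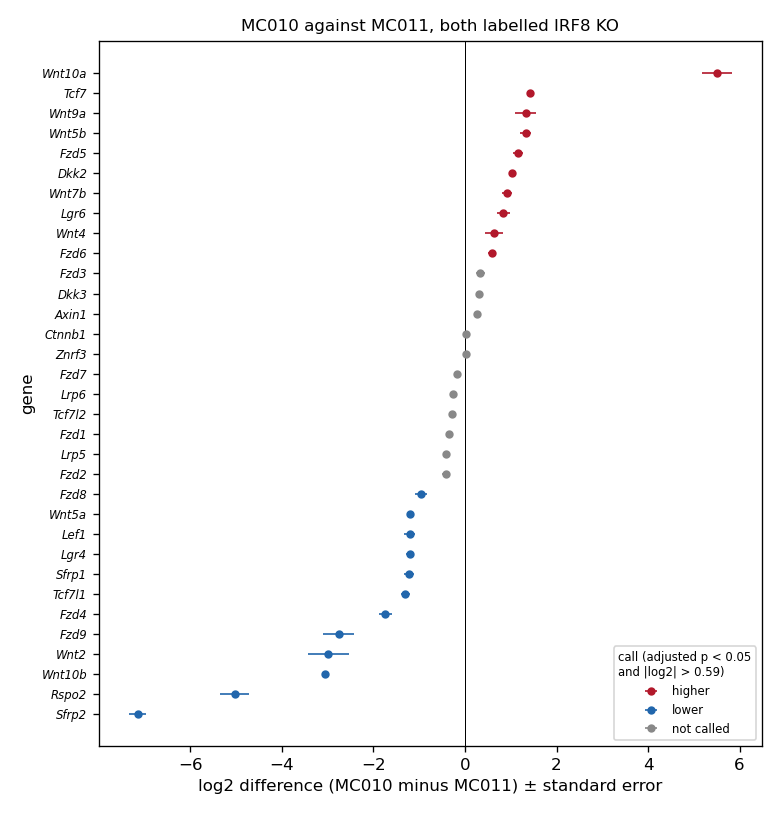
Log2 difference, MC010 minus MC011, with its standard error (horizontal axis) for the 33 members with at least 1 CPM in both libraries of a line (vertical axis), coloured by call. Wnt10a (5.50) is highest in MC010 relative to MC011, and Sfrp2 (-7.15), Rspo2 (-5.03) and Wnt10b (-3.06) are lowest.

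Pathway genes outside the set were read from lists by role. Of 93 in the table, 89 were tested, and 23 were higher under IRF8 KO, 4 lower and 62 not called, so that 30.3% were called against 22.5% of all genes. Their median log2 fold change was 0.18. As with the members, a gene that passed the count filter through only one label had to differ. Of the 9 tested extracellular modulators, 4 were higher and 1 was lower, against 13.7% and 8.72% of all genes. The higher ones were Notum, which removes the lipid from Wnt ligands (3.51, SE 0.27, adjusted p = 6.14e-05), Igfbp4 (2.95, SE 0.12, adjusted p = 3.06e-06), the Sfrp relative Frzb (2.84, SE 0.45, adjusted p = 0.00181) and the membrane inhibitor Apcdd1 (2.09, SE 0.19, adjusted p = 0.000143). The single lower one was Serpinf1 (-1.48, SE 0.27, adjusted p = 0.00376), named after its value was seen. None of the 7 genes of Wnt secretion was called, where 22.5% of all genes were. The 2 with the highest mean CPM were Vps35 (-0.52, SE 0.21, adjusted p = 0.0879) and Wls, the ligand carrier (-0.07, SE 0.11, adjusted p = 0.668).

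In the destruction complex, 1 of 13 genes was called, against 22.5% of all genes. This was Apc2, which was lower (-0.81, SE 0.27, adjusted p = 0.0486). Of the 10 cytoplasmic transducers, only Ccdc88c, which binds Dishevelled, was called, as higher (1.85, SE 0.18, adjusted p = 0.000185), against 22.5% of all genes. Of 15 nuclear cofactors, 6 were higher, led by the corepressor Tle4 (1.51), the beta-catenin partner Bcl9 (0.95), Tle2 (0.90) and Cby1 (0.84), and none was lower, where 13.7% of all genes were higher and 8.72% lower. In the beta-catenin-independent branch, 6 of 21 were higher and none lower, against the same shares of all genes. The largest were Ror1, a receptor for Wnt5a, at 5.60 (SE 0.50, adjusted p = 0.000132), Daam2 at 2.86, Prickle1 at 2.07 and Celsr2 at 1.71. Ror1 was at 3.42 and 3.44 CPM in MC010, 6.89 and 6.72 CPM in MC011 and at most 0.136 CPM under WT.

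Among 22 tested genes often given as beta-catenin targets, 10 were higher and 3 lower (13.7% and 8.72% of all genes), and 6 of the list are themselves members of the set. The largest were Wisp2 (4.08), Ephb2 (3.71), Notum (3.51) and Axin2 (3.06). Notum and Apcdd1, both higher, were also counted among the extracellular modulators. The lower ones were Lef1 (-2.33), Tnfrsf19 (-1.56) and Wisp1 (-1.41), of which the last 2 were named after their values were seen. Ephb2, an ephrin receptor, was at 34.0 and 33.9 CPM in MC010, 88.4 and 83.0 in MC011, 5.85 and 5.74 in MC654, and 3.27 and 3.38 in MC659 (SE 0.43, adjusted p = 0.000442). The list's median log2 fold change was 0.49, against 0.02 for all genes.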

How the data were processed

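Polyadenylated RNA of cultured cells was sequenced with a stranded kit, in 8 libraries. The submitters' processing notes name STAR 2.7.3a, HTSeq 0.11.2 and DESeq2 with the builds mm10 and GRCm38.p6, and whether HTSeq counted by strand is not given in the sources used here. The deposited values used were raw read counts per gene, which the authors made from the aligned reads, for 18768 genes with at least 20 counts over the 8 libraries. The authors also deposited a signal, the counts divided by a size factor per library, not used here. The authors' own comparison of the labels, held as a log2 fold change with its standard error, a test score, a mean and p-values, was not used.

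From the counts, edgeR 4.0.16 in R 4.3.3 gave TMM-scaled CPM and the quasi-likelihood test with Benjamini-Hochberg adjustment, with lowly counted genes filtered by label (15153 genes left) or, between lines, by line (16703 genes). A call needed an adjusted p below 0.05 with a fold change of more than 0.59 (log2, either sign). Alternatives used DESeq2 1.42.0 and limma 3.58.1, other scalings and filters, sums of each line and left-out libraries and lines. On counts simulated for the comparison by label (14979 genes), the quasi-likelihood test called 97 of 100 genes changed 2-fold, 100 of 100 changed 4-fold and 3 unchanged genes. These counts were drawn with no difference between the lines of a label, so they do not show how often the test errs here. Exact permutation tests over libraries used log2(CPM + 0.1). Exon lengths and overlaps came from GENCODE M21, and members of a role were ranked per kilobase of exon. Sums over a role or list, and the choice of the most abundant genes of a list, used CPM without scaling by length. Depth ranged from 74063616 to 116206078 counts, and floors and intervals cover counting error only.

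The members and the gene lists were chosen with earlier results of these data known. Members with at least 1 CPM in both libraries of a line (33) were given in full, and of the other 14 at most 6 with values in the account of each role. From each list of other pathway genes at most 4 called genes were named by size, or the 2 with the highest mean CPM where none was called.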

Additional observations from a re-analysis of the deposited data

Results flagged for a closer look

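In 3 of 66 groups of 4 libraries, 1 library lay far from the other 3, and chance gives about 1 such group in 20. All were MC654 replicate 2 among the libraries labelled WT, with Tcf7l1 at 15.9 CPM, Wnt2 at 0.0235 CPM and Fzd2 at 47.3 CPM.

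MC010 and MC011 differed in 32 of the 47 members by edgeR's quasi-likelihood test, which rests on 2 libraries a line. In 4 of them MC011 was called above both WT-labelled lines and MC010 below both. As the log2 difference MC010 minus MC011, these were Rspo1 (-7.22), Sfrp2 (-7.15), Rspo2 (-5.03) and Wnt10b (-3.06).

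Of the other 28, higher in MC010 were Wnt10a (5.50), Wnt7a (3.20), Tcf7 (1.43), Wnt5b (1.33), Wnt9a (1.33), Fzd5 (1.16), Dkk2 (1.03), Wnt7b (0.92), Lgr6 (0.84), Wnt4 (0.64) and Fzd6 (0.59). Lower in MC010 were Wnt2 (-2.98), Fzd9 (-2.76), Fzd4 (-1.74), Tcf7l1 (-1.30), Sfrp1 (-1.23), Lgr4 (-1.20), Lef1 (-1.20), Wnt5a (-1.19) and Fzd8 (-0.96). Members under 1 CPM in every library were also lower there, namely Wif1 (-8.64), Fzd10 (-7.27), Wnt2b (-5.44), Lgr5 (-5.08), Rspo3 (-5.08), Wnt6 (-3.99), Rspo4 (-2.94) and Sfrp4 (-2.84). All of these but Wif1 were given values after those were seen, and at counts near 0 such fitted differences depend on the prior count and are no bounds.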

How the results depend on the processing

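All 17 called members stayed called in each of the 8 fits that left out 1 library, in which 17 to 21 members and 2908 to 3623 genes were called. Each of these fits kept the other library of the same line. Only the sum of each line, 2 lines against 2, ended every call by label, with 0 members, 0 genes and 0 of the other pathway genes, although 20 members and 3658 genes had an unadjusted p under 0.05 in edgeR. This fit has fewer samples. With the line as a random block in limma-voom, 14 members and 1886 genes (1047 higher, 839 lower) were called.

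Without MC010, 30 members (26 higher, 4 lower) and 4735 genes (2679 higher, 2056 lower) were called. The label difference reversed for Lgr4 (0.11), Fzd9 (0.33) and Sfrp4 (0.33). Without MC011, 26 members were called, 11 of them lower, with 5827 genes (3159 higher, 2668 lower) and 41 other pathway genes. It then reversed for Rspo1 (-5.06), Rspo2 (-2.32), Rspo4 (-1.89), Tcf7l1 (-0.18), Wnt10b (-1.25), Wnt9a (0.13), Fzd2 (-0.14), Fzd8 (-0.23) and Sfrp2 (-2.84), and for Fzd2 (-0.03) without MC011 replicate 1 alone, where the fits without 1 library ran from -0.03 to 0.19. Without MC654, 14 members (12 higher, 2 lower) and 2079 genes were called (1222 higher, 857 lower). Without MC659, 14 members (12 higher, 2 lower) and 1884 genes were called (1185 higher, 699 lower), and Wnt9a (0.06) and Rspo4 (-0.30) reversed. Rspo4 also ran from -0.49 to 0.61 over the fits without 1 library. The cause of these changes was not tested.

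Without a threshold on the fold change, 4 members were lower, 5675 genes were called (3151 higher, 2524 lower) and 43 other pathway genes. Between lines, the same setting called 10629 genes for MC010 against MC654, 10830 against MC659, 9692 for MC011 against MC654, 9779 against MC659, 10184 for MC010 against MC011 and 2175 for MC654 against MC659.

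The replicate numbers are only names: deviations from the line means correlated at -0.027 to 0.055 between lines. With the replicate block, 17 members (15 higher, 2 lower) and 3106 genes were called by label, and no call of the 33 members shown in full changed.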
